A study of Mus musculus with 6 samples.

Results

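The angiopoietin and Tie receptor system was followed in mouse choroid endothelial cells (ECs) through its 5 core genes, the ligands Angpt1 and Angpt2, the receptors Tek (which encodes Tie2) and Tie1, and the receptor phosphatase Ptprb (VE-PTP). The genes were taken by symbol from the deposited FPKM values (fragment counts scaled to transcript length and to the upper quartile of each library). All 5 were present among 22026 gene symbols. RNA had been sequenced from choroid ECs of untreated 129/B6 mice at postnatal day 5 (P5) and postnatal day 30 (P30), with 3 isolations per age and the RPE/choroid of 7 animals (14 eyes) pooled in each isolation. The ECs were sorted by flow cytometry for VE-Cadherin, which had been labelled by an antibody injected into the living animal, in a smaller amount at P5. P5 pups were anaesthetized by hypothermia, and the P30 mice were of both sexes. The comparison asks how developing and adult choroid ECs differ. The depth of the libraries is unknown, since FPKM keep no read counts, and therefore no counting error is given. The FPKM summed to between 1432700 and 1485332 per isolation at P5 and between 1571227 and 1734639 at P30.

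Tie2 is a receptor tyrosine kinase found mainly on ECs. Angiopoietin-1, made mostly by mural and other stromal cells, activates it, strengthens junctions and keeps vessels quiescent through PI3K and Akt, which hold the transcription factor Foxo1 out of the nucleus. Angiopoietin-2 is made by ECs themselves, is stored in their Weibel-Palade bodies, and acts as a weak agonist or an antagonist depending on context. Tie1 binds no angiopoietin with high affinity and modulates Tie2 in a shared complex, whereas VE-PTP removes phosphate from Tie2 and also associates with VE-Cadherin.

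In mm9, the build of the authors' alignment, the GENCODE annotation places Tek on chromosome 4 from 94405980 to 94541667 (plus strand, 23 exons in the longest coding transcript) and Tie1 on the same chromosome from 118143796 to 118162666 (minus strand, 23 exons). Ptprb lies on chromosome 10 from 115712579 to 115826594 (plus strand, 32 exons), Angpt2 on chromosome 8 from 18690263 to 18741562 (minus strand, 9 exons), and Angpt1 on chromosome 15 from 42256273 to 42508523 (minus strand, 9 exons). The whole of Angpt2 sits inside Mcph1, a gene of the opposite strand, with 0 exon bases in common. Angpt1 shares 283 exon bases with the antisense transcript Gm17473. Whether reads were counted by strand is not given in the sources used here. In the shared bases, reads of Gm17473 therefore cannot be told apart from those of Angpt1. For Angpt2 this holds only for reads of unspliced Mcph1 RNA, since these genes have 0 exon bases in common.

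The RefSeq promoter table (GRCm38.p6) was matched for 2 of the 5 genes, the receptors Tek and Tie1, and not for Angpt1, Angpt2 and Ptprb. The 250 bases before the RefSeq start of each were searched, since ETS factors, which bind GGAA, are known regulators of both genes and were measured here. Exact matches placed the windows in mm9 at chr4:94405730-94405979 for Tek and at chr4:118162455-118162704 (minus strand) for Tie1. The Tek window ends at the base before the annotated gene, and the sequence is shown 5′ to 3′ on the gene's strand, with GGAA or its reverse complement TTCC in capitals.
Tek: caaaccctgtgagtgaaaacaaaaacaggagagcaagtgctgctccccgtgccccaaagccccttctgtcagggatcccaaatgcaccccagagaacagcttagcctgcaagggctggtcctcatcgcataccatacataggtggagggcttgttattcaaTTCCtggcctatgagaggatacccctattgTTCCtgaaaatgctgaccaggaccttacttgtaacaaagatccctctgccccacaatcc
The Tie1 window is no plain upstream region, because 212 of its 250 bases lie within exons of Tie1 as GENCODE annotates the gene, and its letters are not shown. The core was found 2 times in the Tek window and 7 times in that of Tie1, against a median of 3 in the 32851 promoters of the RefSeq table, of which 93.4% held at least 1 match. The Foxo motif TGTTTAC and the GATA motif AGATAA, searched on both strands, had 0 matches in either window and were present in 3.17% and 9.99% of all promoters.

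The receptor side of the system was abundant at both ages, and the ligands were not. Tie1 was the highest of the 5 genes, with a median rank of 43 among all genes by FPKM, followed by Tek (169) and Ptprb (198), while Angpt2 and Angpt1 had median ranks of 6883 and 8326. At P5 the order of the levels was Tie1, Tek and Ptprb, with no overlap between these neighbours, and then Angpt1 and Angpt2, whose isolations overlapped. At P30 the order was Tie1, Ptprb, Tek, Angpt2 and Angpt1. In that order the lowest Ptprb isolation, 1176 FPKM, was narrowly above the highest Tek isolation, 1152 FPKM, and Angpt2 was above Angpt1 in every isolation. These levels are per length of transcript. Other differences between genes in how reads are counted were not tested, so the narrow order of Ptprb and Tek at P30 is one of FPKM only.

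**Figure D1:**
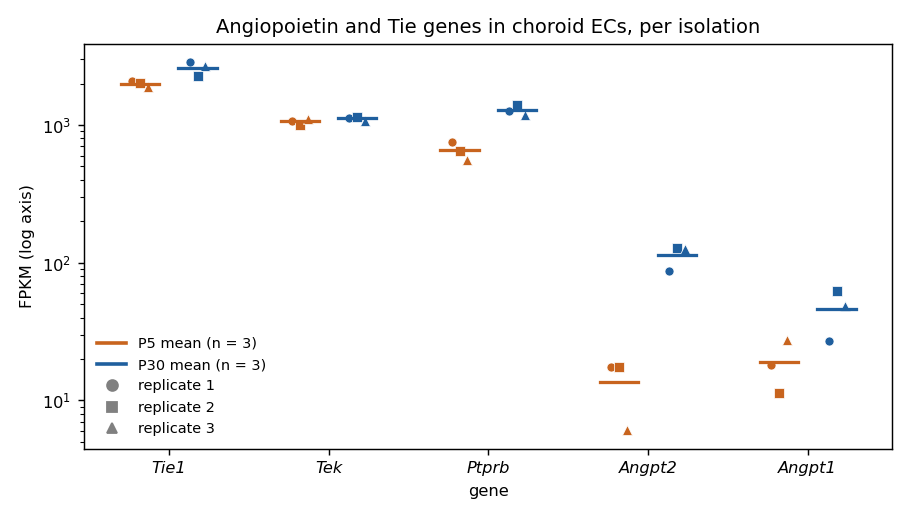
FPKM of the 5 genes (log axis) in each of the 3 P5 and 3 P30 isolations, with bars at the age means. Angpt2, Ptprb and Tie1 sit higher at P30 in every isolation, as in 22.0% of the genes tested, with 33.0% lower in every isolation. Tek stays between 1007 and 1152 FPKM at both ages, and Angpt1 overlaps between the ages.

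Angpt2, the EC-derived ligand, showed the largest change of the system. In order of replicate number, as throughout, its FPKM read 17.5, 17.4 and 6.06 at P5 against 87.7, 128 and 126 at P30. Every P30 isolation was thus above every P5 isolation, and P5 replicate 3 and P30 replicate 1 were the lowest of their ages. The mean rose from 13.7 ± 6.59 to 114 ± 22.6 (SD, n = 3), which is 8.32-fold (limma on log2 FPKM + 1, difference 3.08 ± 0.38 SE, adjusted p = 0.00120). Of the 12481 genes tested, 5.89% passed an adjusted p of 0.01 with at least 2-fold higher mean FPKM + 1 at P30, the limits of the study's methods, and 5.82% did so in the other direction. Among the 5 members, Angpt2 alone passed both limits. It passed them without any single isolation as well, and the smallest of these log2 fold changes was 2.61, without P5 replicate 3. Mcph1, the gene around it on the other strand, had 15.2 ± 4.40 at P5 and 5.03 ± 1.29 at P30, the opposite direction to Angpt2. In pooled sorted cells, more RNA per cell cannot be told apart from a larger share of cells that express a gene.

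Ptprb, the phosphatase of Tie2, also rose. The P5 isolations had 757, 643 and 560 FPKM, and the P30 isolations had 1268, 1402 and 1176 FPKM. The ages did not overlap, and the highest P5 isolation was far below the lowest at P30. The mean changed from 653 ± 99.2 to 1282 ± 113 (SD, n = 3), a 1.96-fold difference just short of the 2-fold limit (limma log2 difference 0.98 ± 0.13 SE, adjusted p = 0.00179). By the adjusted p alone, Ptprb and Angpt2 were the 2 members called upward, beside 8.51% of all genes in that direction and 10.7% in the other. Without P5 replicate 2, the adjusted p of Ptprb from limma was 0.0125, at a log2 fold change of 0.97. Without P5 replicate 1 or P30 replicate 3 the gene passed both limits (log2 fold changes of 1.09 and 1.04). When each isolation was scaled by its mean over 10 EC marker genes, the log2 fold change of Ptprb was 0.40 (adjusted p = 0.0516 from limma).

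Tek, the angiopoietin receptor, was nearly level in FPKM. The P5 isolations had 1076, 1007 and 1113 FPKM against 1120.1, 1152 and 1078 at P30, so the ages overlapped. The means were 1065 ± 53.8 and 1116 ± 37.2 (SD, n = 3), and the log2 fold change was 0.07 with a 95% interval from -0.14 to 0.28 (adjusted p = 0.573 from limma). Under the FPKM scaling this interval holds no 2-fold change in either direction. The rank of Tek by FPKM among all genes was 142, 162 and 118 at P5 and 183, 187 and 176 at P30. It was thus further from the top in every P30 isolation. The sign turned under other scalings, to -0.22 with quantile normalization and to -0.51 with the EC marker scaling (adjusted p = 0.111 and 0.0110 from limma).

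Tie1, the orphan partner of Tie2, had 2069, 2034 and 1889 FPKM at P5 against 2848, 2276 and 2658 FPKM at P30. All P30 isolations were above all P5 isolations, as in 22.0% of the genes tested, with 33.0% separated in the other direction. The means were 1997 ± 95.4 and 2594 ± 291 (SD, n = 3), a 1.299-fold difference with no call (limma log2 difference 0.37 ± 0.12 SE, adjusted p = 0.0406). Its sign turned to -0.11 with quantile normalization and to -0.21 with the EC marker scaling (adjusted p = 0.4995 and 0.109 from limma). A direction of Tie1 with age therefore rests on the scaling.

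**Figure D2:**
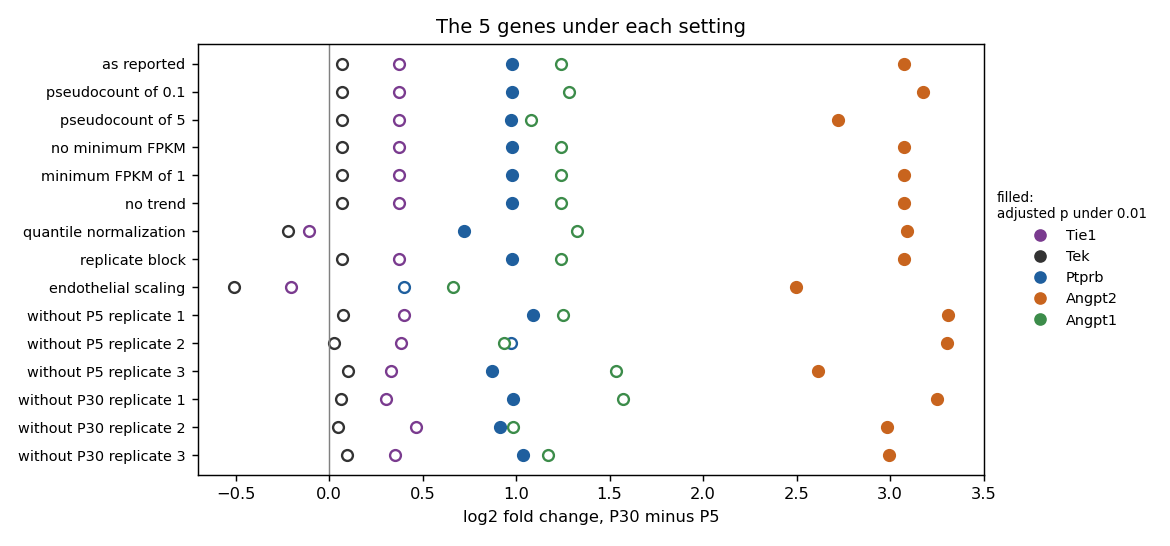
Log2 fold change of each of the 5 genes (P30 minus P5) as reported and under each other setting or with 1 isolation left out, with filled points where the adjusted p from limma was under 0.01 (endothelial scaling is the EC marker scaling). Angpt2 lies between 2.50 and 3.31 and is filled throughout, Ptprb is open with the EC marker scaling and without P5 replicate 2, and Tek and Tie1 fall below 0 with quantile normalization and the EC marker scaling.

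The EC marker scaling rests on genes that themselves changed. Of the 10 EC markers (Pecam1, Cdh5, Kdr, Emcn, Plvap, Eng, Esam, Egfl7, Cldn5 and Flt1), 8 had every P30 isolation above every P5 isolation, and Cdh5, the gene of the sorted protein VE-Cadherin, was the 1 that had every P30 isolation below. Among all genes tested, the shares were 22.0% above and 33.0% below. All 10 were at 827 FPKM or more in every isolation, so the defining EC markers were present throughout. The scaling moved the median log2 fold change of all genes from -0.10 to -0.67, and the genes past both limits from 735 higher at P30 and 726 higher at P5 to 376 and 2945. Per Cdh5, the level of Tek was 35.9% ± 2.67 at P5 and 59.2% ± 1.99 at P30 (SD, n = 3), while per Pecam1 it was 66.3% ± 5.49 and 79.2% ± 7.79. Angpt2 was 0.460% ± 0.223 of Cdh5 at P5 and 6.05% ± 1.33 at P30, and 0.850% ± 0.414 and 8.18% ± 2.34 of Pecam1. The difference in Angpt2 was thus present against either reference, and that in Tek was larger against Cdh5 than against Pecam1. Neither reference was among the 8 markers that rose, with log2 fold changes of -0.66 for Cdh5 and -0.19 for Pecam1. The direction of Tek against EC markers therefore depends on the markers taken, and with all 10 its log2 fold change was -0.51.

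Angpt1, the activating ligand of Tie2, was low and variable. FPKM values of 18.1, 11.3 and 27.4 at P5 stood against 27.1, 62.8 and 48.1 at P30. P5 replicate 3 was slightly above P30 replicate 1, and the other isolations separated by age. The means were 18.9 ± 8.06 and 46.0 ± 17.9 (SD, n = 3), and the gene was not called (log2 fold change 1.24, SE 0.39, 95% interval from 0.34 to 2.14, adjusted p = 0.0390 from limma).

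Markers of other cells moved with age beside the ligands. The summed FPKM of 6 fibroblast markers was 663, 422 and 851 at P5 against 1443, 3244 and 1805 at P30. Within each age the isolations stood in the same order for this sum as for Angpt1. The sum of 7 pericyte markers was 1748, 919 and 476 at P5 and 1880, 6375 and 3894 at P30, which is the order of Angpt1 at P30 but not at P5. Rgs5 made up most of the pericyte sum at P30, with 2675 ± 1399 FPKM. In each of these lists 4 genes separated the ages upward and 0 downward, beside 22.0% and 33.0% of all genes tested. No gene of these lists had an FPKM of 0 in any isolation. The part of such cells in the Angpt1 values was not tested. Angpt2 stood in the same order of isolations as the pericyte sum at both ages, and the part of such cells in the Angpt2 values was not tested either. Without P30 replicate 2, the highest isolation in both sums, the log2 difference in Angpt2 was 2.98 (limma, adjusted p = 0.00569), while the other P30 isolations were still above every P5 isolation in both sums.

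**Figure D3:**
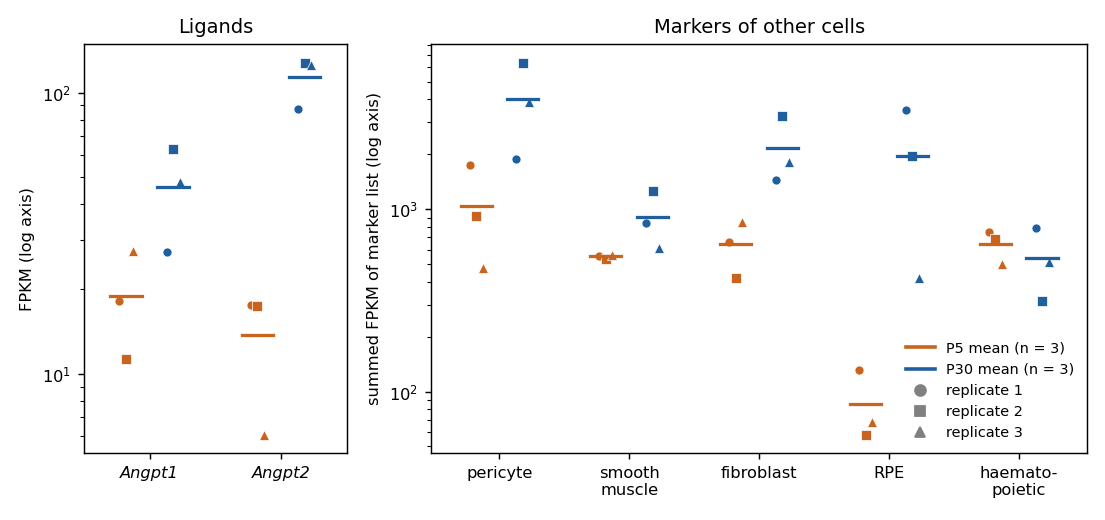
Left, FPKM of Angpt1 and Angpt2 per isolation. Right, summed FPKM of 5 marker lists of other cells per isolation (log axes, bars at the age means). Among the P30 isolations, replicate 2 is highest in Angpt1, Angpt2 and the pericyte, smooth muscle and fibroblast sums, while replicate 1 is highest in the RPE sum.

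The other lists were the 6 smooth muscle markers, which summed to between 536 and 563 at P5 and between 613 and 1254 at P30, and the 7 RPE markers, with 57.9 to 131 and 422 to 3524. Smtn made up most of the smooth muscle sum at P5, with 448.2 FPKM on average against 420.7 at P30. The 5 other smooth muscle markers, among them Myh11 (means of 6.80 and 69.75), had every P30 isolation above every P5 isolation. This was so in 22.0% of all genes tested. The 6 photoreceptor markers summed to between 2.21 and 7.25 at P5 and between 41.0 and 349 at P30, the 6 haematopoietic markers to between 498 and 754 and between 313 and 793. The 5 platelet markers, counted because platelets carry angiopoietin-1, summed to between 421 and 485 at P5 and between 36.4 and 146 at P30. Pf4, which macrophages can also express, made up most of this sum at P5, with 443 ± 31.6 FPKM. The 4 lymphatic or Schlemm canal EC markers summed to between 362 and 496 at P5 and between 517 and 645 at P30, mostly Flt4, while Prox1, the factor that defines lymphatic ECs, was between 3.54 and 7.47 FPKM. In at least 1 isolation, 1 smooth muscle, 1 RPE, 4 photoreceptor and 2 platelet markers were listed at 0.

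Ratios of transcripts within the system shifted with the single genes. The ratio of Angpt2 to Angpt1 FPKM was 0.967, 1.54 and 0.221 at P5 against 3.23, 2.04 and 2.61 at P30, with no overlap between ages. The difference of the mean log2 ratios was 1.90 with all isolations and 1.08 without P5 replicate 3. The ratio of Ptprb to Tek was 0.704, 0.638 and 0.503 at P5 and 1.13, 1.22 and 1.09 at P30. The FPKM of the phosphatase was thus below that of its receptor in every P5 isolation and above it in every P30 isolation. Tie1 to Tek was 1.88 ± 0.166 at P5 and 2.33 ± 0.307 at P30 (SD, n = 3), and here P30 replicate 2 (1.98) lay inside the P5 range. Tek exceeded Angpt2 by 57.8-fold to 184-fold in the P5 isolations and by 8.58-fold to 12.8-fold in those of P30. These ratios are given as a description without a test. They hold for transcripts in the sorted isolations. Because angiopoietin-1 is made mostly by mural and other stromal cells, the ratio of Angpt2 to Angpt1 here is no measure of ligand balance in the tissue.

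**Figure D4:**
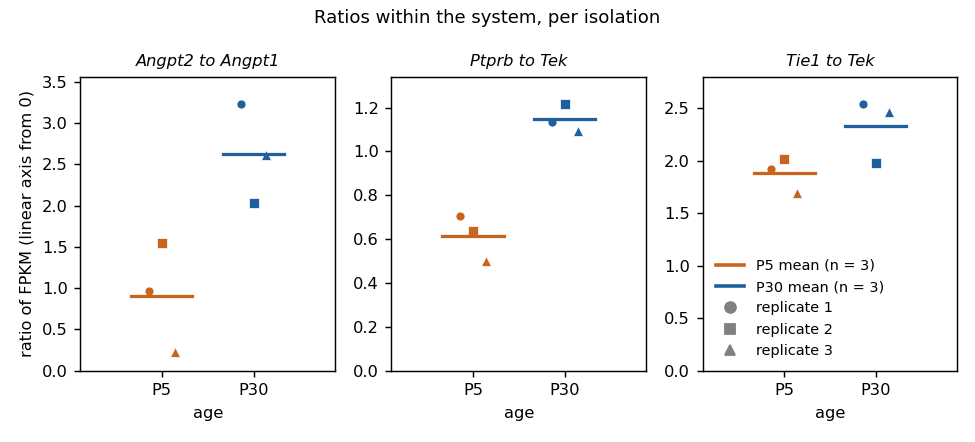
Ratio of FPKM per isolation for Angpt2 to Angpt1, Ptprb to Tek and Tie1 to Tek (linear axes from 0, bars at the age means). The ages separate for Angpt2 to Angpt1 and for Ptprb to Tek, and overlap for Tie1 to Tek.

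Relatives of the members were mostly low. Of 9 further angiopoietin, angiopoietin-like and Tie-binding genes, 4 reached the minimum FPKM of the fit. Angptl2, a secreted protein of stromal cells among others, rose from 12.8 ± 2.46 to 94.1 ± 49.4 (log2 fold change 2.62, adjusted p = 0.00380 from limma), and its P30 isolations had 38.9, 134 and 109 FPKM, again lowest in replicate 1. The call held without P30 replicate 1 and was lost without any 1 of the other isolations. Angptl4, a lipoprotein lipase inhibitor, had 18.4 ± 2.75 and 12.6 ± 4.55, Angptl1 had 1.497 ± 0.492 and 5.71 ± 3.25, and Svep1, a matrix protein that binds Tie1, had between 1.54 and 12.9 in the 6 isolations, with no call. Angpt4, the further Tie2 ligand, had at most 1.35 FPKM in any isolation, and Lect2 was listed at 0 in all. Among the receptor phosphatases related to Ptprb, Ptprj had 15.8 ± 3.98 at P5 and 20.1 ± 10.8 at P30, Ptpro and Ptprq stayed at 5.92 FPKM or less, and Ptprh was listed at 0. Ptprb was thus the one abundant member of its family.

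**Figure D5:**
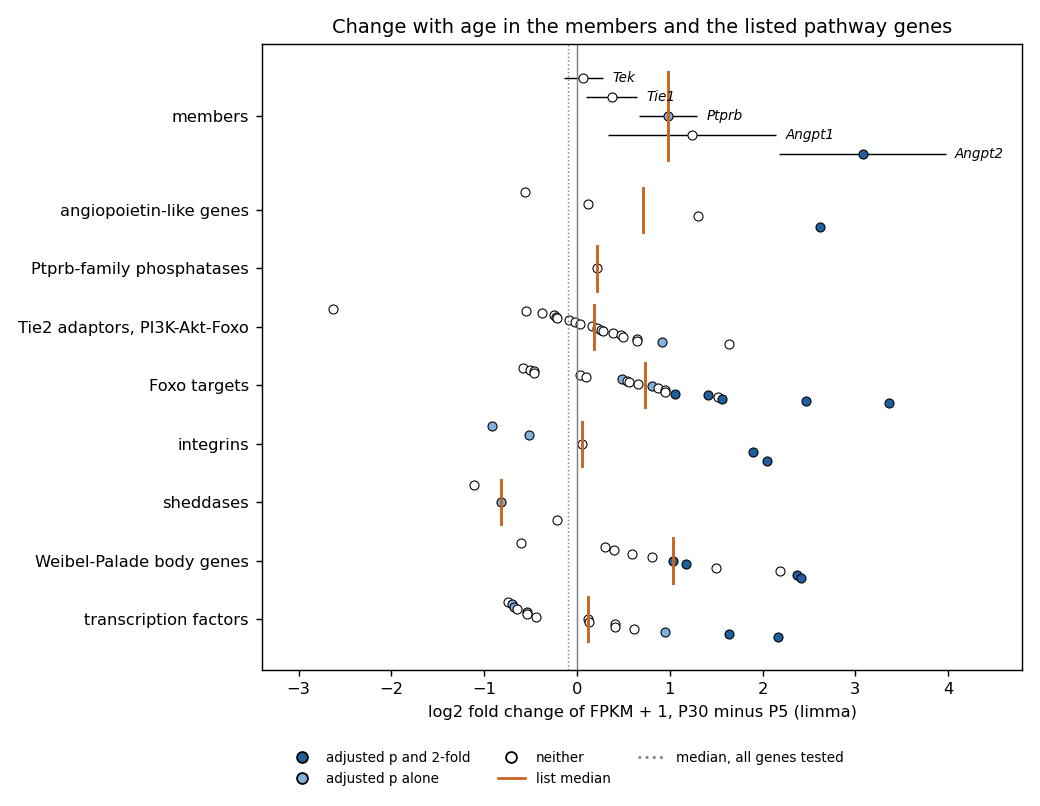
Log2 fold change of FPKM + 1 (P30 minus P5, limma) for the 5 members, with 95% intervals, and for the tested genes of 8 pathway lists. Bars mark list medians and the dotted line the median of all genes tested, -0.10. The adaptor and PI3K-Akt-Foxo list is centred at 0.19, the Foxo target list at 0.73 and the Weibel-Palade body list at 1.03.

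The kinase arm downstream of Tie2 held no gene past both limits. Of 20 adaptor and PI3K-Akt-Foxo genes tested, 0 passed them in either direction, beside 5.89% higher and 5.82% lower at P30 among all genes. At an unadjusted p under 0.05 (limma), 7 were higher and 5 lower at P30, beside 20.7% higher and 28.8% lower among all genes. The count past both limits was 2 upward with quantile normalization, 1 upward without P30 replicate 3, 1 downward without P30 replicate 1 and 2 downward with the EC marker scaling. With that scaling, 2945 of the 12481 genes tested were past both limits downward. The median log2 fold change was 0.19, against -0.10 over all genes. By the adjusted p alone 1 was higher at P30 and 0 lower, beside 8.51% and 10.7% of all genes. This was Akt2, named after its value was seen, whose mean went from 23.0 ± 0.836 to 45.0 ± 8.78 (log2 fold change 0.92, adjusted p = 0.00738 from limma). Akt1, the main Akt of ECs, had 484 ± 27.1 and 407 ± 10.7, and Foxo1, the factor it restrains, had 221 ± 5.78 and 228 ± 26.3 (limma log2 difference 0.04 ± 0.11 SE, adjusted p = 0.818). The adaptor Grb2 had 205 ± 1.505 and 177 ± 6.90, and Nos3, the endothelial nitric oxide synthase, 329 ± 44.1 and 460 ± 92.7, neither past the adjusted p.

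Of the genes known as Foxo targets in various cells, those past both limits were all higher at P30. Of 20 tested, 5 passed both limits upward and 0 downward (12 and 2 at an unadjusted p under 0.05, limma). Among all genes the shares were 5.89% upward and 5.82% downward at both limits and 20.7% and 28.8% at the unadjusted p. The median log2 fold change was 0.73. Irs2, an insulin receptor substrate, rose from 5.86 ± 2.57 to 78.9 ± 60.5 (log2 fold change 3.36, adjusted p = 0.00261 from limma), with 43.7, 149 and 44.2 in the P30 isolations. Insr, the insulin receptor, rose from 102 ± 15.9 to 278 ± 74.0, Bcl6, a transcriptional repressor, from 3.88 ± 0.945 to 25.9 ± 4.01, Trib1, a pseudokinase, from 103 ± 2.52 to 216 ± 17.8, and Ctgf, better known as a YAP target, from 352 ± 21.0 to 1044 ± 112. By the adjusted p alone, Txnip rose from 1016 ± 143 to 1777 ± 148, and Cdkn1b, named after its value was seen, from 166 ± 4.88 to 233 ± 14.2. Gadd45b, with 443 ± 76.6 and 911 ± 367, and Sesn1, with 294 ± 17.4 and 314 ± 30.3, did not pass. The number past both limits was 3 without P5 replicate 2 or 3, and 2 upward and 2 downward with the EC marker scaling. Of all 12481 genes, 376 were past both limits upward and 2945 downward with that scaling.

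The Weibel-Palade body list, which covers the storage organelle of angiopoietin-2 and proteins released with it, had 4 of 11 tested genes past both limits upward and 0 downward (8 and 0 at an unadjusted p under 0.05, limma), beside 5.89% and 5.82% of all genes at both limits and 20.7% and 28.8% at the unadjusted p, with a median log2 fold change of 1.03. Myrip, a linker of these granules to the actin cytoskeleton, rose from 13.9 ± 2.91 to 77.4 ± 8.81 (log2 fold change 2.41, adjusted p = 0.000261 from limma). Edn1, the vasoconstrictor endothelin-1, rose from 66.1 ± 22.4 to 345 ± 114, Igfbp7 from 3695 ± 539 to 8419 ± 1721, and Plat, tissue plasminogen activator, from 140.0 ± 13.7 to 292 ± 73.4. Vwf, which forms the body of the granule, had 980.5 ± 216 at P5 and 1300.0 ± 323 at P30, with overlap and no call (log2 fold change 0.40, adjusted p = 0.213 from limma). The count was 2 with quantile normalization, with the EC marker scaling and without any 1 of the P5 isolations. Of all 12481 genes, 376 were past both limits upward with the EC marker scaling.

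The integrins reported as angiopoietin partners moved in both directions. Itgb3 rose from 4.81 ± 1.90 to 23.2 ± 9.02 and Itgb5 from 54.8 ± 16.6 to 203 ± 39.0, both past both limits, while Itga5 fell from 369 ± 8.48 to 198 ± 36.4 and Itgb1 from 1882 ± 30.4 to 1323 ± 143 by the adjusted p alone. Among all genes, 5.89% were higher and 5.82% lower at P30 at both limits, and 8.51% and 10.7% by the adjusted p alone. Itgav had 48.8 ± 3.07 and 52.6 ± 18.03. The upward count was 1 in place of 2 with no minimum FPKM, with no trend, with the EC marker scaling, with the replicate block and without any 1 of P5 replicates 1, 2 or 3 or P30 replicates 2 or 3. Of the 3 sheddases, proteases that release receptor ectodomains, Adam10 fell from 595 ± 17.9 to 338 ± 30.6 (log2 fold change -0.82, adjusted p = 0.00102 from limma), and Adam17 (170 ± 1.28 and 147 ± 8.38) and Mmp14 (408 ± 11.2 and 200 ± 84.5) did not pass. The downward count past both limits was 0 in each list. In each it was 1 with quantile normalization and 2 with the EC marker scaling. With that scaling, 2945 of the 12481 genes tested were past both limits downward. The downward count was also 1 for the integrins without P30 replicate 1 and for the sheddases without P30 replicate 2.

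Transcription factors known to act on these genes also divided. Of 15 tested, 2 passed both limits upward and 0 downward (6 and 7 at an unadjusted p under 0.05, limma). The all-gene shares were again 5.89% and 5.82% at both limits and 20.7% and 28.8% at the unadjusted p. With the EC marker scaling 7 were past both limits downward, beside 2945 of the 12481 genes tested. By the adjusted p alone, 3 were higher at each age, and the median log2 fold change was 0.12. Gata2 rose from 123 ± 9.50 to 386 ± 68.5 (log2 fold change 1.63, adjusted p = 0.000366 from limma) and Klf2, the flow-responsive factor, from 671 ± 109 to 3030.0 ± 614 (log2 fold change 2.16, adjusted p = 0.000301 from limma). Epas1, which encodes HIF-2 alpha, rose from 1349 ± 233 to 2583 ± 181 by the adjusted p alone. Ets1 fell from 1208 ± 148 to 740.4 ± 46.4 (log2 fold change -0.70, adjusted p = 0.00381 from limma), and Elf2 and Hhex, named after their values were seen, had log2 fold changes of -0.54 and -0.68 (adjusted p = 0.00819 and 0.00923 from limma). Ets2 had 1042 ± 57.6 and 770.1 ± 62.9 and did not pass.

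Over the 8 lists together, 14 of 79 genes tested passed both limits upward and 0 downward (37 and 18 at an unadjusted p under 0.05, limma). These counts stand beside 5.89% and 5.82% of all genes at both limits and 20.7% and 28.8% at the unadjusted p. The upward count was 8 without P5 replicate 2, without P5 replicate 3, or with the EC marker scaling, and the downward count with that scaling was 15. Of all 12481 genes, 376 were past both limits upward and 2945 downward with the EC marker scaling.

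The genes whose log2(FPKM + 1) followed each member most closely over the 6 isolations are given as a description. These points form 2 age groups, and each gene was chosen as the best of 12480. Angpt2 was closest to the junction gene Jam2 (Pearson's r = 0.999), Cd200 and Epas1. Ptprb was closest to Zc3h10, Tmtc1 and Flt3l, Tie1 to Lcmt2, Trmt112 and Smad9, Angpt1 to Inpp4b, Tmem65 and Ankrd40, and Tek to Prkcq, Prkx and Zbtb11, at r from 0.952 for Zbtb11 to 0.999 for Zc3h10. For deviations from the age means, which remove the difference between ages, the nearest genes to Angpt2 were Cav1, Jam2 and Mosc2, those to Angpt1 were Sec24c, Mmachc and Slc26a7, those to Tek were Mfap4, Arfgef1 and F3, those to Tie1 were Thsd1, Zfp526 and Trmt112, and those to Ptprb were Npr2, Tm9sf4 and Cish. Between members, the deviations ranged over the 6 isolations from r = -0.798 for Angpt1 and Tie1 to r = 0.702 for Angpt2 and Ptprb. These pairs are the extremes and were named after their values were seen. Others lay near 0, such as Ptprb with Tek (0.060) and with Tie1 (-0.030).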

How the data were processed

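RNA of sorted choroid ECs was sequenced by the authors on the Illumina HiSeq2000 platform from TruSeq libraries. They aligned reads to mm9 with TopHat (default parameters) and used Cufflinks for the FPKM, which they corrected for GC and scaled by upper quartile, and the deposited values are 1 FPKM per gene symbol and isolation. The submitters' processing notes name CASAVA 1.8.2, while the versions of TopHat and Cufflinks and the annotation are not given in the sources used here. Depth is unknown. Samples were grouped by age from their titles. From the deposited FPKM, log2(FPKM + 1) was fitted in R 4.3.3 by limma 3.58.1 (lmFit, eBayes with a trend, two-sided, no block) for genes whose mean FPKM reached 5 at either age, with Benjamini-Hochberg adjustment over all of them. The call limits were an adjusted p under 0.01 and 2-fold in mean FPKM + 1. Fold changes of low genes are understated on this scale. The isolations were separate pools of animals. The fit was tested on simulated data. Tables and plots used Python 3.11.15, pandas 2.3.3 and matplotlib 3.10.9.

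The members and lists were chosen with earlier results of these data known. Named were the 5 members and, of each list, every gene past both limits and the 4 genes of highest mean FPKM. Genes of these lists named outside this rule are marked as such, except Angpt4 and Lect2. The rule does not cover the cell type markers or the genes that overlap the ligands. Nearest genes were the 3 of highest Pearson correlation per member. Alternatives were pseudocounts of 0.1 and 5, no minimum FPKM or a minimum of 1, no trend, quantile normalization, a replicate block and each isolation left out. The EC marker scaling was added after the data were seen. Promoters are those of RefSeq (GRCm38.p6), located in mm9 by exact match, and 2 of the 5 genes matched the table.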

Additional observations from a re-analysis of the deposited data

How the results depend on the processing

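Angpt2 kept its direction and its adjusted p under 0.01 in every alternative run, with log2 fold changes from 2.50 to 3.31, and Angpt1 kept its direction and stayed above that limit. With quantile normalization, Tek and Tie1 reversed to -0.22 and -0.11, the log2 ratio of Tie1 to Tek (P30 minus P5) moved to 0.11, and 2 listed genes were lower at P30. With the EC marker scaling, Tek and Tie1 reversed to -0.51 and -0.21, Ptprb was at 0.40 and no longer passed, the listed genes past both limits were 8 upward and 15 downward, and all genes past both limits were 376 and 2945 (468 and 4901 by the adjusted p alone). This scaling subtracts the mean of 10 EC genes, of which 8 were themselves higher at P30, while Cdh5 was lower and Pecam1 overlapped between the ages. The cause of the quantile result was not tested. Leaving out 1 isolation gave 0.87 to 1.09 for Ptprb, 8 to 15 listed genes upward and 0 to 2 downward, 396 to 849 genes past both limits higher at P30 and 291 to 754 higher at P5 (430 to 1146 and 327 to 1282 by the adjusted p alone). These fits rest on fewer samples. The replicate block, with pairing by the number in the titles, gave 707 and 708 genes by the adjusted p alone in place of 1062 and 1338, and 585 and 524 past both limits. It changed no call of a member. The numbers share no animals, and same-numbered isolations correlated at -0.0618, -0.0905 and -0.0305 in their deviations from the age means, so they were not taken as pairs. Since the depth is unknown, no counting error could be given for the low ligand values.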
